A study of Mus musculus with 23 samples.

Results

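Gfap-high astrocytes are described here as a group of single cells from mouse brain that met an astrocyte rule and held 3 or more Gfap molecules. Molecules were counted as UMIs, the unique molecular identifiers that mark each captured RNA. A barcode, which stands for a droplet and normally for a cell, had to show 500 or more genes, 800 or more UMIs and a mitochondrial share of no more than 10%. It also had to have a UMI of 4 or more of 8 astrocyte genes (Aqp4, Gja1, Slc1a3, Slc1a2, Aldoc, Gjb6, Slc4a4, Aldh1l1), with their sum at least 3 times that of 6 genes of endothelial cells, microglia and oligodendrocytes (Cldn5, Flt1, Cx3cr1, P2ry12, Mog, Mag). Barcodes with a UMI of Foxj1, Ccdc153 or Tmem212, which are genes of ciliated cells, were left out, and this removed 84 astrocyte barcodes with 3 or more Gfap UMIs. The rule found 2095 Gfap-high astrocytes among 99072 astrocytes (2.11%), 249715 barcodes that passed the filters and 265025 deposited barcodes. The 96977 astrocytes with fewer Gfap UMIs are called other astrocytes below.

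Gfap encodes glial fibrillary acidic protein, an intermediate filament of the astrocyte cytoskeleton that assembles together with vimentin (Vim). In the healthy brain its RNA and protein are most abundant in fibrous astrocytes of white matter, in astrocytes under the pial surface and around large vessels, in the hippocampus and in the neural stem cells of the ventricle wall, while most protoplasmic astrocytes of grey matter hold little of it. It also rises in astrocytes that react to injury or inflammation. In the mouse the gene lies on chromosome 11 at 102887336 to 102897200 of GRCm38.p6, per RefSeq.

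The cells came from mice 3.3 months old that had received an antibody labelled with the dye AF647 at 45 mg/kg into the tail vein and were perfused 24 hours later. ATV-TfR, an antibody transport vehicle that binds the transferrin receptor (gene Tfrc), was given to TfR mu/hu KI mice, and ATV-CD98hc, which binds the CD98 heavy chain (gene Slc3a2), to CD98hc mu/hu KI mice. C57BL/6J mice, the background strain of both knock-ins, received the control IgG, so treatment and genotype cannot be told apart. How reads from the human part of the knock-in genes were counted is not given in the sources used here, so between genotypes a lower level of Tfrc or Slc3a2 and fewer counted reads cannot be told apart. The brain without olfactory bulbs, cerebellum, pons and medulla was dissociated in the presence of actinomycin D and anisomycin, which block transcription and translation in every group, and live cells were sorted by AF647 into negative, low, medium and high bins. The gates came from the tertiles of the AF647-positive ATV-TfR cells and were applied to all treatments. Each treatment had 2 pools, each of 1 male and 1 female mouse, and every bin of a pool became 1 library, so the bins of a pool share animals. The control IgG negative bin is represented by replicate 2.

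In all, 23 libraries in 12 groups were analysed, with 1861238 to 90307818 UMIs per library. Gfap-high astrocytes numbered 0 to 439 per library, and 12 libraries held the 20 or more that were asked for in comparisons of gene levels. These were both libraries of the ATV-TfR low, medium and high bins, both of the ATV-CD98hc low and medium bins, ATV-CD98hc negative replicate 1 and control IgG negative replicate 2. The ATV-TfR negative libraries held 19 and 13 Gfap-high astrocytes and the ATV-CD98hc high libraries 9 and 3, so these bins have no test of gene levels. They enter the shares, the percents of cells with a UMI and the levels pooled over all libraries. Up to 130 barcode sequences occurred in both libraries of a pair (median 22 over 253 pairs). Among Gfap-high astrocytes 6.35% had a barcode that also occurred in another library, against 6.48% of all barcodes, and no barcode was Gfap-high in 2 libraries. Of Gfap-high astrocytes with a sex call, 41.2% were male, against 41.7% of other astrocytes. P-values measure the spread between these libraries. Since bins of a pool share animals, they do not measure the spread between animals.

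The label was checked against its 3 markers, of which Gfap and Aqp4 belong to the rule and get no test. Levels are given in CPM, a gene's UMIs scaled by the total UMIs of the summed cells of a library. Gfap was at 719 ± 103 CPM (SD, n = 12 libraries) in Gfap-high and 44.8 ± 23.4 CPM in other astrocytes, a difference that the selection made. Aqp4, the water channel of astrocyte endfeet, was at 845 ± 55.3 against 724 ± 86.7 CPM and was higher in 11 of 12 libraries. Vim, which the rule did not use, was at 139 ± 55.2 against 54.3 ± 28.9 CPM and was higher in Gfap-high cells in 12 of 12 libraries. A UMI of Aqp4 was present in 93.6% of Gfap-high astrocytes and a UMI of Vim in 37.1%. Vim is not specific to them, since endothelial barcodes had a median of 1248 CPM over the same libraries.

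Gfap-high astrocytes were deeper than other astrocytes, with a median of 6148 UMIs and 2771 genes per cell against 4114 UMIs and 2125 genes. A threshold in UMIs passes deep cells more readily, so shares were also computed after each cell was thinned to 2000 UMIs, and gene levels also within cells of 3000 to 6000 UMIs. At 2000 UMIs, 421 of 89988 astrocytes (0.468%) still had 3 or more Gfap UMIs. Thinned to that depth, Vim was seen in 17.6% of Gfap-high against 4.78% of other astrocytes, C4b in 18.4% against 5.13% and Thbs4 in 9.70% against 0.822%. Without thinning these shares were 37.1% against 9.19%, 39.0% against 9.98% and 14.7% against 1.46%. In endothelial barcodes, whose median depth was 3450 UMIs, C4b was seen in 0.325% and Thbs4 in 0.0104%. Most of these barcodes come from libraries with few astrocytes. Doublet scores above percentile 94 of a library were held by 7.97% of Gfap-high and 5.74% of other astrocytes, and these cells were kept except where stated.

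The amount of Gfap varied widely within the group. The median was 4 UMIs and the highest 119. Of the 2095 cells, 945 had exactly 3 Gfap UMIs, 684 had 5 or more and 128 had 10 or more. Just below the threshold were 2574 astrocytes with exactly 2. Cells at exactly 3 and exactly 2 UMIs had similar profiles, with 94.2 and 86.7 CPM of Vim, 819 and 805 CPM of Aqp4, 78.4 and 57.1 CPM of C4b, and 583 and 649 CPM of Agt. The threshold therefore cuts a gradient rather than a gap, as the levels in cells grouped by Gfap UMIs show. From cells with no Gfap UMI to those with 10 or more, Vim went from 38.1 to 375 CPM, C4b from 24.6 to 310 CPM, Igfbp5 from 71.1 to 757 CPM and Thbs4 from 4.10 to 214 CPM. Cells with 10 or more are pooled over libraries, of which 1 held 20 or more of them, and in that library Thbs4 was at 74.2 CPM, below the pooled 88.2 CPM at 5 to 9 Gfap UMIs. Slc6a11, the GABA transporter GAT-3 of grey matter astrocytes, went the other way, from 1624 to 727 CPM. Myoc, the gene of myocilin and a marker of astrocytes under the pia, was concentrated at the top of the gradient, with 3.62 CPM at exactly 3 Gfap UMIs, 35.1 CPM at 5 to 9 and 412 CPM at 10 or more, but 74.2 CPM in that library. ATV-TfR negative replicate 1, with 19 Gfap-high cells, alone held 126 Myoc UMIs. Agt did not follow the same course to the end, with 929 CPM at no Gfap UMI, 437 CPM at 5 to 9 and 572 CPM at 10 or more. Median depth rose along the same gradient from 4006 to 7020 UMIs, and the endothelial marker sum was at 1252 CPM with no Gfap UMI, 2941 CPM at 5 to 9 and 1973 CPM at 10 or more. Their part in these levels was not tested.

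**Figure D1:**
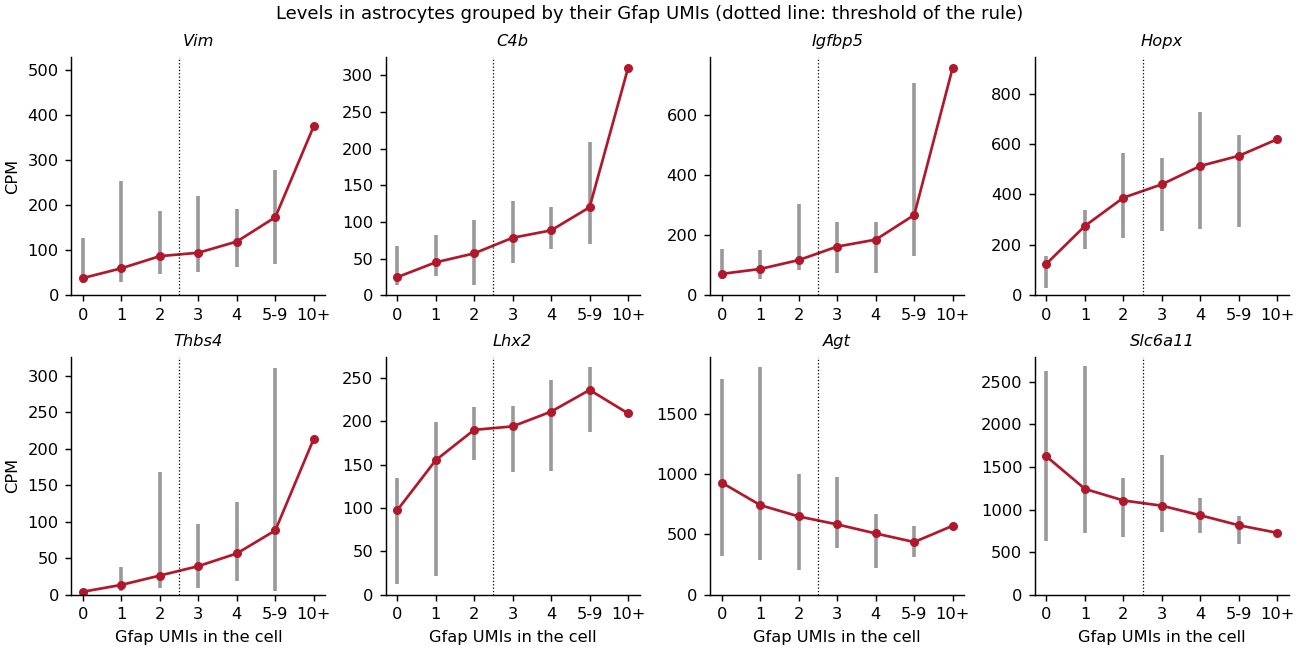
Levels of 8 genes (CPM of summed cells, linear axes from 0) in astrocytes grouped by their Gfap UMIs; points pool all libraries, and grey bars span the lowest and highest library with 20 or more cells of that group. Pooled Vim, C4b, Igfbp5, Hopx and Thbs4 are higher at each step of Gfap, Slc6a11 is lower, and the dotted threshold of the rule falls within the gradient; cells with 10 or more Gfap UMIs reach 20 in 1 library only, so they have no bar.

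The first comparison asked what else set Gfap-high apart from other astrocytes of the same libraries. Genes of fibrous and subpial astrocytes were higher almost throughout, genes of protoplasmic astrocytes were mostly lower, and regional genes divided by brain region. The test was edgeR's quasi-likelihood test on UMIs summed per library and class over 12 libraries, with the library as a block and Benjamini-Hochberg adjustment over 13475 genes. The classes were divided by a measured gene, so the test says which other genes went with Gfap, and the 18 genes of the rule have no test. At an adjusted p below 0.05, 2708 genes were higher (20.1% of those tested) and 2459 lower (18.2%), so a call alone says little, and lists are read by how far their counts and medians stand from these shares and from the median of all genes, -0.01 (log2). The lists were chosen with earlier results of these data known, so their counts describe these cells and are no independent check.

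Of 20 genes of fibrous and subpial astrocytes, 18 were higher and 1 lower, with a median of 0.92 on the log2 scale. Vim ranged from 61.9 to 231 CPM (median 130) over the 12 Gfap-high sums and from 29.1 to 120 CPM (median 43.7) in other astrocytes (log2 fold change 1.47, SE 0.11, adjusted p = 5.83e-12). C4b, a complement component, ranged from 69.6 to 160 CPM (median 113) against 19.5 to 60.9 CPM (median 31.9) (log2 fold change 1.78, SE 0.10, adjusted p = 3.32e-15). For C4b the lowest Gfap-high library lay above the highest library of other astrocytes, whereas for Vim the ranges overlapped and each library was higher than its own other astrocytes. Reads of C4b can be split with its near-identical copy C4a, depending on the counting. Igfbp5, a binding protein of insulin-like growth factors, ranged from 131 to 444 CPM (median 208) against 64.6 to 130 CPM (median 77.2) (log2 fold change 1.51, SE 0.11, adjusted p = 1.10e-12). Thbs4, a thrombospondin of the extracellular matrix, ranged from 14.5 to 192 CPM (median 62.9) against 5.23 to 8.63 CPM (median 5.98) (log2 fold change 3.48, SE 0.19, adjusted p = 3.32e-15). Thbs4 thus separated the classes without overlap but varied more than 10-fold among Gfap-high libraries. Also higher were S100a6, a calcium-binding protein (1.13, SE 0.08), Tnc, the matrix protein tenascin C (1.39, SE 0.14), the hyaluronan receptor Cd44 (0.90, SE 0.17) and Id3, a regulator of differentiation (0.60).

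Some members behaved differently. Myoc had the largest fold change of the list (6.00, SE 0.63) but was present in 1.29% of Gfap-high cells and was at 0 CPM in the lowest library and 159 CPM in the highest. Fxyd6, which encodes a regulator of the sodium pump, was higher by 3.10 (SE 0.31) and ranged from 1.31 to 137 CPM. Crym, the gene of a thyroid hormone-binding crystallin, was the member that fell, by 1.78 on the log2 scale (SE 0.25, adjusted p = 8.57e-07), and was lower than in other astrocytes in 11 of 12 libraries. Igfbp2 did not pass the test (-0.08, adjusted p = 0.335).

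Of 16 genes of protoplasmic astrocytes, 10 were lower and 2 higher, with a median of -0.16. The largest decreases were in Trpm3, a cation channel (-1.16, SE 0.04), Lrig1, a membrane regulator of growth factor receptors (-0.87, SE 0.05), Slc6a11 (-0.80, SE 0.04) and Slc7a10, a transporter of small neutral amino acids (-0.52, SE 0.04). Trpm3 ranged from 999 to 1832 CPM in Gfap-high and from 2319 to 4441 CPM in other astrocytes, with no overlap. Glul, glutamine synthetase, went against the list and was higher by 0.46 (SE 0.04, adjusted p = 4.24e-11), at 1694 to 2526 CPM against 1115 to 1883 CPM. Of 8 genes of glutamate and GABA clearance, 3 were higher and 4 lower, with a median of -0.05. The 10 genes named by size among those lower in every library included the glutamate receptor subunits Gria4 (-2.07) and Gria1 (-1.58), the neuregulin receptor Erbb4 (-1.57), the neurotrophin receptor Ntrk3 (-1.59) and the adhesion molecule Nrxn3 (-1.59). Gria1 was at 110 to 398 CPM against 513 to 1089 CPM.

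Astrocytes also carry the transcription factors and enzymes of the brain region they formed in. Of 7 tested genes of telencephalic astrocytes 6 were higher and none lower, with a median of 0.50, and of 10 genes of astrocytes outside the telencephalon 9 were lower and none higher, with a median of -1.06. Lhx2, a LIM homeobox factor, ranged from 161 to 244 CPM in Gfap-high and from 63.2 to 136 CPM in other astrocytes (1.06, SE 0.06, adjusted p = 1.40e-14). Emx2 (0.80, SE 0.07), a factor of forebrain patterning, was higher in 12 of 12 libraries. Slc6a9, the glycine transporter GlyT1, was at 19.0 to 74.7 CPM against 126 to 227 CPM (-1.51, SE 0.07, adjusted p = 1.74e-17), and Agt, angiotensinogen, at 204 to 672 CPM against 585 to 1351 CPM (-0.94, SE 0.05, adjusted p = 4.45e-15). Both were lower in 12 of 12 libraries. The homeobox factors Irx2 (-1.71, SE 0.18), Nkx6-2 (-1.51, SE 0.09) and Otx2 (-1.18, SE 0.13) were also lower. Agt was still present in 64.3% of Gfap-high cells, close to the 66.6% of other astrocytes, and at equal depth in 41.7% against 56.2%, so the group was not made of Agt-negative cells alone.

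Of 15 tested genes of neural stem cells of the ventricle wall, 9 were higher and 1 lower, with a median of 0.54. Hopx, a homeodomain protein of stem cells and of some astrocytes, had the smallest p of the named genes and ranged from 285 to 628 CPM (median 476) against 102 to 226 CPM (median 152) (log2 fold change 1.64, SE 0.05, adjusted p = 3.41e-20). Prom1 was higher by 1.03 and Nes, the filament nestin, by 0.76. Between the low and high ATV-TfR bins, where endothelial markers rose, Prom1 (2.07) and Nes (2.64) were higher too. Fits among cells with few endothelial marker UMIs, described below, were run, but their values for Prom1 and Nes are not given here. Beyond these fits the part of endothelial transcripts in Prom1 and Nes was not tested. Nes was present in 5.63% of Gfap-high cells and was at 344 CPM (median) in endothelial barcodes. The growth factor receptor Egfr was lower (-0.33, SE 0.04). Genes of dividing precursors and young neurons were not called, namely Sox4 (0.04), Sox11 (-0.03) and Dlx2 (-0.53). The list shares Thbs4 and Fabp7 with the fibrous list.

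Genes linked to reactive astrocytes moved in part. Of 9 tested pan-reactive genes 5 were higher and none lower (median 0.39), of 11 genes of the type described as neurotoxic 5 were higher and none lower (0.29), and of 5 of the type described as protective 3 were higher and none lower (0.60). Vim, Cd44 and Serpina3n of the pan-reactive list are also on the fibrous list. In ATV-TfR high against low Gfap-high cells, described below, Srgn (4.34), H2-T23 (2.47), H2-D1 (1.59) and Tm4sf1 (2.35) of the neurotoxic and protective lists were higher. The other members of these lists that were tested there were not called. Endothelial markers rose between those bins as well. Fits among cells with at most 10 UMIs of these markers, described below, were run, but their values for the reactive lists are not given here. Beyond these fits the part of endothelial transcripts in the reactive lists was not tested. Osmr, the oncostatin M receptor, was higher by 1.52 (SE 0.15, adjusted p = 8.49e-10), at 12.0 to 31.5 CPM against 3.51 to 16.6 CPM, and was at 72.8 CPM (median) in endothelial barcodes. Serpina3n, an inhibitor of proteases that is abundant in reactive astrocytes, was present in 4.25% of Gfap-high cells against 1.79% of other astrocytes. Lcn2, the lipocalin of strongly reactive astrocytes, was too low to be tested. Of 10 tested interferon-stimulated genes 2 were higher and none lower. Of 10 tested immediate early genes, which also respond to dissociation, 4 were higher, among them Fos (1.21, SE 0.27).

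Other functions of astrocytes differed by smaller amounts. All 3 metallothioneins, which bind zinc and copper, were higher, by 0.56 for Mt1, 0.54 for Mt2 and 0.64 for Mt3, and Mt3 ranged from 1714 to 4111 CPM against 1170 to 2703 CPM. Of 12 genes of lipid and cholesterol handling 8 were higher and 1 lower (median 0.25), with the apolipoprotein genes Clu (0.80, SE 0.04) and Apoe (0.49, SE 0.04) higher in 12 of 12 libraries. Of 18 lysosomal genes 9 were higher and 1 lower (median 0.14). Of 12 genes of the endfoot and its dystrophin complex 7 were lower and 2 higher (median -0.14), with Mlc1, a membrane protein of perivascular endfeet, at 0.65 (SE 0.05) and dystrophin (Dmd) at -0.49 (SE 0.04). Of 7 intermediate filament and linker genes 4 were higher and none lower, including plectin (Plec, 0.56), which links filaments to other parts of the cytoskeleton.

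The receptors that the antibodies bind were close in the classes. Tfrc was at 71.3 CPM on average in Gfap-high against 54.8 CPM in other astrocytes and was higher in 11 of 12 libraries (0.35, SE 0.08, adjusted p = 0.000501). Slc3a2 was at 215 against 238 CPM and did not pass the test (-0.09, SE 0.04, adjusted p = 0.0895). Its partner Slc7a5, the large neutral amino acid transporter LAT1, was higher (0.42, SE 0.08), as was the neonatal Fc receptor Fcgrt, which binds IgG in endosomes (0.46, SE 0.07). All 4 are also found in endothelial barcodes, with medians of 268 CPM for Tfrc, 295 CPM for Slc3a2, 612 CPM for Slc7a5 and 500 CPM for Fcgrt. Among cells with at most 10 UMIs of endothelial markers, a limit set after the data were seen, the difference was 0.17 for Tfrc (adjusted p = 0.136) and 0.09 for Slc7a5 (adjusted p = 0.519), neither called, and for Slc3a2 it was -0.16 (adjusted p = 0.0154). In the low bins alone Fcgrt was not called either (0.22, adjusted p = 0.107). Of the other iron genes, the ferritins Fth1 (0.62) and Ftl1 (0.57) were higher, and 4 of 12 genes of the iron list were called in all, each higher.

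Transcripts of other cell types moved with the classes. All 12 endothelial markers were higher in Gfap-high astrocytes, with a median of 0.58, and their summed level was 1121 to 6075 CPM against 885 to 4614 CPM in other astrocytes and 28890 to 50902 CPM in endothelial barcodes. Among cells with at most 10 UMIs of these markers, a limit that itself lowers them, 18 fibrous genes were higher and 7 non-telencephalic genes lower. Of all 12224 genes tested there, 2443 were higher and 2209 lower. Within cells of 3000 to 6000 UMIs, 17 fibrous genes were higher, 6 telencephalic genes higher and 8 non-telencephalic genes lower, with no endothelial marker called. That fit called 1613 of all 10782 genes higher and 1319 lower. Of 10 microglial markers 1 was higher and 3 were lower, at 76.0 to 636 CPM in sum against 28189 to 46231 CPM in microglial barcodes. Of 8 oligodendrocyte markers 4 were higher, at 184 to 2132 CPM in sum. All 8 fibroblast markers and all 6 tested choroid plexus markers were lower, with medians of -2.69 and -1.21, and the fibroblast sum was 17.9 to 47.5 CPM against 28.7 to 164 CPM. Of 5 tested ependymal markers 2 were higher, at 56.1 to 174 CPM in sum. The part of the oligodendrocyte and ependymal transcripts in the result was not tested.

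The second comparison asked how the Gfap-high share of astrocytes went with antibody signal. In the ATV-TfR mice it rose steeply with AF647. The share was 1.12% and 0.646% in the negative libraries (replicates 1 and 2), 1.24% and 0.927% in the low, 3.68% and 2.81% in the medium, and 23.4% and 21.2% in the high libraries. The high libraries held few astrocytes, 683 and 453, of which 160 and 96 were Gfap-high, with exact 95% binomial intervals of 20.3 to 26.8% and 17.5 to 25.2%. These intervals cover counting error only. The medium and high libraries did not overlap with each other or with the negative and low libraries, while negative and low overlapped. A straight line through the logit-transformed shares, with 0.5 cells added to each side, climbed by 1.16 per bin (two-sided exact permutation of bin labels over 8 libraries, p = 0.0016, adjusted p = 0.0079 over 5 share tests). At 2000 UMIs per cell the shares were 0.469% and 0.172% (negative), 0.393% and 0.179% (low), 0.837% and 0.686% (medium), and 4.13% and 3.76% (high), a slope of 0.88 (adjusted p = 0.024 by the same exact permutation). Among cells with at most 10 endothelial marker UMIs the slope was 1.13, and it was 1.15 in male and 1.32 in female cells. At 2000 UMIs and with at most 10 endothelial marker UMIs the adjustment covers fewer share tests. The share of all cells was not tested in these settings.

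In the ATV-CD98hc mice the share was 0.903% and 0.314% in the negative libraries, 1.40% and 1.42% in the low, 4.92% and 5.70% in the medium, and 4.59% and 1.47% in the high libraries. The high bin rests on 9 of 196 and 3 of 204 astrocytes, with exact intervals of 2.12 to 8.54% and 0.304 to 4.24%. Both lay below both medium libraries, whose intervals were 3.82 to 6.21% and 4.68 to 6.87%, and the difference between these bins was not tested. At 2000 UMIs per cell the order was not the same, with 0.386% and 1.14% in the medium libraries, 1.70% (3 of 176 cells) in high replicate 1 and none of 155 cells in high replicate 2. The slope was 0.64 per bin and missed the threshold after adjustment (exact permutation, p = 0.031, adjusted p = 0.077). It passed when 2 Gfap UMIs were enough (0.55, adjusted p = 0.032) and among cells with at most 10 endothelial marker UMIs (0.62, adjusted p = 0.023), both by the same exact permutation. By that permutation it did not pass at 2000 UMIs per cell (0.42, adjusted p = 0.15) or with 5 or more Gfap UMIs (0.59, adjusted p = 0.14). It passed neither in male (0.49, adjusted p = 0.19) nor in female cells (0.73, adjusted p = 0.052). Nor did it pass with doublets left out (0.65, adjusted p = 0.062), with barcodes found in 1 library only (0.63, adjusted p = 0.071) or with permutation within pools (0.64, adjusted p = 0.095). The slopes of the antibodies differed by 0.52, which the exact permutation of treatment labels within bins did not separate (p = 0.27). Control IgG negative replicate 2 had 2.25% (123 of 5470), above all 4 negative libraries of the ATVs, with no replicate. At 2000 UMIs per cell it was at 0.399%, below ATV-TfR negative replicate 1 (0.469%). The positive control IgG libraries held 4 to 33 astrocytes and 7 Gfap-high astrocytes in all, too few for a share.

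The make-up of the libraries changed along the same bins. Astrocytes were 84.5% and 89.1% of the filtered barcodes in ATV-TfR low but 3.49% and 2.57% in ATV-TfR high, where 18274 of 19551 and 16731 of 17611 filtered barcodes were endothelial. As a share of all filtered barcodes, Gfap-high astrocytes were most frequent in the medium bin of ATV-TfR (2.74% and 2.14%), and the slope over the bins did not pass the test for ATV-TfR (0.45, adjusted p = 0.19) or ATV-CD98hc (-0.63, adjusted p = 0.19), both by exact permutation. A Gfap UMI was rare in endothelial barcodes, but their rule limits astrocyte UMIs, so a low value is partly built in. On average 0.295 to 1.42% of endothelial barcodes of an ATV bin had a Gfap UMI, and the lowest of the ATV-TfR bins in this respect was the high bin (0.515%). The ATV-TfR negative libraries had 2 of 92 and 0 of 61 such barcodes and the low libraries 4 of 311 and 3 of 194.

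**Figure D2:**
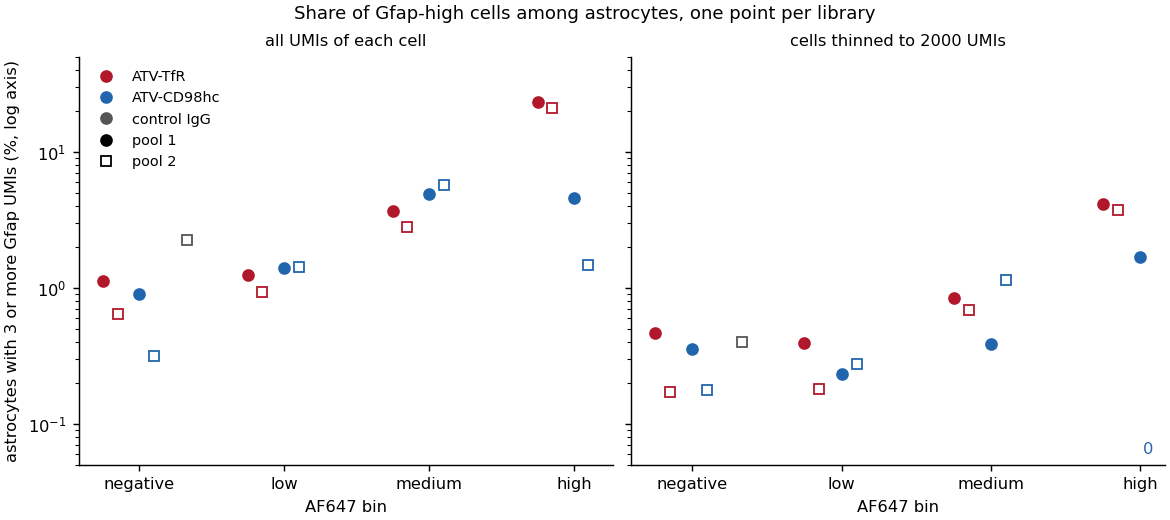
Gfap-high cells as a percent of astrocytes in each library (log axis) against the AF647 bin, with all UMIs of a cell (left) and after thinning to 2000 UMIs (right); circles and squares are the pools, and the mark 0 is a library with none. ATV-TfR reaches 23.4% and 21.2% in the high bin, and 4.13% and 3.76% after thinning; positive control IgG libraries are left out because they held 4 to 33 astrocytes.

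The third comparison asked how Gfap-high astrocytes with much ATV-TfR signal differed from those with little. The bins compared were high and low, because the negative libraries fell short of 20 cells. The test used all 12 libraries in 1 fit with 1 mean per group and 11554 genes. In the high bin 656 genes were higher (5.68% of those tested) and 386 lower (3.34%), with a median of all genes of -0.03. The 1042 calls became 340 with DESeq2, 231 in cells with at most 10 endothelial marker UMIs and 110 in cells of 3000 to 6000 UMIs. The settings that restrict the cells hold fewer of them. The higher genes were led by endothelial markers, of which 11 of 12 were higher and none lower, with a median of 3.88. Itm2a was at 8.87 and 4.22 CPM in the low libraries, 44.3 and 33.4 CPM in the medium and 449 and 501 CPM in the high (6.23 for high minus low, SE 0.31, adjusted p = 5.33e-13). Of 8 tested pericyte and smooth muscle markers 3 were higher and none lower (median log2 fold change 1.00), and the sum of that list was 75.9 to 221 CPM in low and 162 to 385 CPM in high libraries. The vascular growth factor receptor Kdr had no UMI in either low library and was, in the high bin, higher by at least 49.2-fold against a floor of 3 UMIs over the group. In sum the endothelial markers were at 1155 to 1267 CPM in low, 1439 to 1620 CPM in medium and 5486 to 6075 CPM in high libraries. More than 10 of their UMIs were held by 55.6% and 44.8% of Gfap-high cells in the high bin, against 14.8% and 24.2% in the low bin.

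The genes that were higher were therefore divided by their level in endothelial barcodes. Of the 656, 521 (79.4%, against 45.3% of all genes tested) had a higher level in endothelial barcodes of the high bin than in Gfap-high cells of the low bin, and 135 did not. Tfrc, Slc7a5 and Fcgrt were of the first kind. The level in the low bin enters both this division and the fold change, so the contrast of these shares is partly built in. Tfrc was at 30.6 and 32.7 CPM in low and 110 and 85.4 CPM in high libraries (1.75, SE 0.21, adjusted p = 1.43e-06), Slc7a5 at 27.6 and 24.3 against 137 and 162 CPM (2.60, SE 0.21, adjusted p = 3.11e-09) and Fcgrt at 62.1 and 50.6 against 152 and 121 CPM (1.39, SE 0.19, adjusted p = 1.22e-05). For each of them the high libraries lay above all low and medium libraries, as did the endothelial sum. Among cells with at most 10 endothelial marker UMIs Tfrc was still called (1.28, adjusted p = 0.016), while Slc7a5 (0.85, adjusted p = 0.266) and Fcgrt (0.60, adjusted p = 0.31) were not. Slc3a2 was at 260 and 264 against 310 and 272 CPM and did not pass (0.25, adjusted p = 0.268). Of 9 tested interferon-stimulated genes 4 were higher, among them Isg15 (3.19, SE 0.52) and Ifitm3 (1.63, SE 0.29), and among cells with at most 10 endothelial marker UMIs none of 5 tested was called and Ifitm3 had the opposite sign (-0.51). Leaving out a replicate, here and below, removes that pool from every bin, and without ATV-TfR replicate 1 Isg15 was not called (1.78, adjusted p = 0.22). In those cells 30 of the 329 endothelial-higher genes that could be tested, markers that set the limit included, were called again (9.12%), 63 had the opposite sign, and the median log2 fold change went from 1.08 to 0.45.

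The 135 other genes kept their direction, all 135, in cells with at most 10 endothelial marker UMIs, where 90 were called (66.7%) and the median went from 0.66 to 0.77. These cells are part of those that gave the 135 calls, so their direction is no independent check. Leaving out cells rich in endothelial transcripts can also raise the CPM of genes that are low in endothelial barcodes. Hsd11b1, the enzyme that regenerates active glucocorticoid inside cells, was at 88.7 and 120 CPM in the low libraries, 184 and 179 CPM in the medium and 274 and 239 CPM in the high, with no overlap between bins (1.40, SE 0.16, adjusted p = 6.96e-07). It was at 0.263 CPM in endothelial barcodes of the high bin, and the log2 fold change was 1.62 (adjusted p = 2.30e-06) in cells with few endothelial UMIs. Nnat, neuronatin, a small membrane protein of the endoplasmic reticulum, was at 512 and 413, then 774 and 664, then 1164 and 1015 CPM (1.33, SE 0.14, adjusted p = 2.75e-07), also without overlap. Scd2, a fatty acid desaturase, was at 979 and 875, then 1372 and 1335, then 1873 and 1805 CPM (1.08, SE 0.11, adjusted p = 2.01e-07). Related enzymes Fads1 and Fads2 were both higher by 0.75. S100b, a calcium-binding protein of astrocytes, was at 186 and 196 CPM in low and 316 and 390 CPM in high libraries (0.97, SE 0.14). Genes of the endfoot were among them, with Mlc1 at 0.86 (SE 0.15) and the potassium channel Kcnj10 at 0.68 (SE 0.14). Of 11 tested genes of the endfoot and dystrophin complex 4 were higher and 1, Dmd, was lower (-0.62). Agrn, among the 4, had a higher level in endothelial barcodes and so was not among the 135. Of 18 lysosomal genes 6 were higher and none lower (median 0.30), namely Psap, Lamp1, Grn, Ctsb, Scarb2 and Tpp1, with Psap, the precursor of the saposins, at 751 and 727 against 1150 and 1161 CPM (0.74, SE 0.12). Grn too was of the endothelial-higher kind. In cells with at most 10 endothelial UMIs 3 of the lysosomal genes were called, each higher, beside 147 higher and 84 lower of all 10392 genes tested. Leaving out either ATV-TfR pool ended the calls of Grn, Ctsb, Scarb2 and Tpp1 but not that of Psap. Leaving out replicate 2 ended those of Mlc1 (0.67, adjusted p = 0.0945) and Lamp1 (0.57, adjusted p = 0.136), and leaving out replicate 1 those of Kcnj10 (0.56, adjusted p = 0.255) and Fads2 (0.70, adjusted p = 0.0933). The calls of Hsd11b1, Nnat and Scd2 held without either pool.

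**Figure D3:**
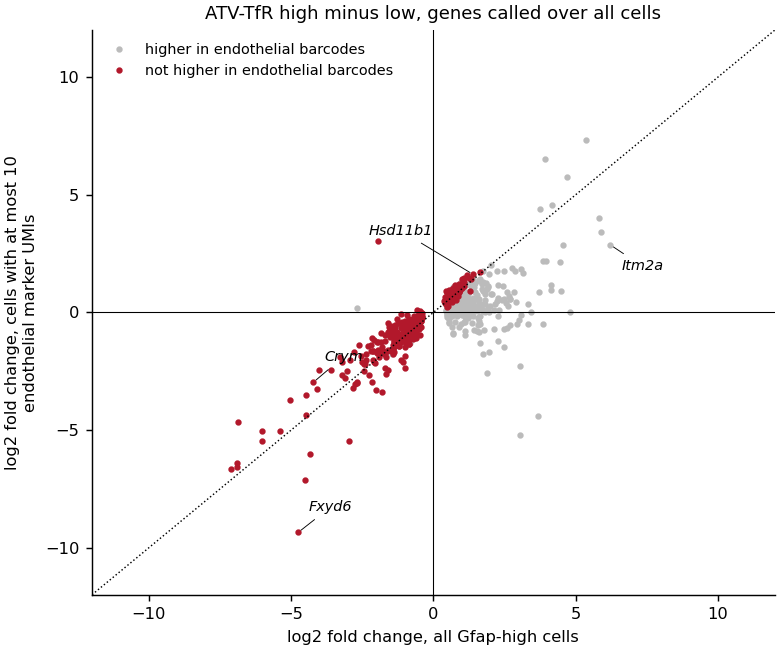
Genes called between ATV-TfR high and low Gfap-high astrocytes and tested in both fits (843 genes): log2 fold change over all cells (x axis) against that over cells with at most 10 endothelial marker UMIs (y axis). Genes with a higher level in endothelial barcodes (grey) lie mostly below the dotted line of equality on the right (Itm2a is among the markers that set the limit), and the 135 others that were higher (red, right) lie along it, while genes that were lower lie on the left; fitted values of genes with few or no UMIs in a bin depend on the fit and give no size.

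Genes that fell in the high bin came from several lists. Of 20 fibrous genes 5 were lower and 1 higher (median -0.19), and of 16 protoplasmic genes 3 were lower and 1 higher (median -0.11). Of the 386 lower genes 13 had a higher level in endothelial barcodes (3.37%, against 45.3% of all genes tested). Of 366 tested lower genes that were not higher in endothelial barcodes, 63 were called again among cells with at most 10 endothelial marker UMIs (17.2%), and 363 kept their direction. Of the 13 that were higher in endothelial barcodes, 3 were called again. These cells are part of those that gave the calls, so the kept direction is no independent check. Crym went from 82.8 and 38.0 CPM in the low libraries to 4.77 and 0 CPM in the high (-4.22, SE 0.56, adjusted p = 9.53e-06) and Fxyd6 from 137 and 38.0 to 3.97 and 1.31 CPM (-4.75, SE 0.60, adjusted p = 4.23e-06). Thbs4 was at 192 and 71.7 against 59.6 and 14.5 CPM (-1.58, SE 0.35, adjusted p = 0.00422), and Igfbp5 at 444 and 248 against 209 and 187 CPM (-0.70, SE 0.20, adjusted p = 0.0229). ATV-TfR low replicate 1 was the highest library for Crym, Fxyd6, Thbs4 and Igfbp5. Without the ATV-TfR replicate 1 pool, in all its bins, Igfbp5 was not called (-0.32, adjusted p = 0.653). The member that rose was Id1 (1.37, SE 0.22), a regulator of differentiation, which had the opposite sign in cells with at most 10 endothelial marker UMIs (-0.45, adjusted p = 0.668). Vim was at 231 and 124 against 206 and 212 CPM and did not pass (0.32, adjusted p = 0.442), nor did C4b (0.40, adjusted p = 0.262) or Hopx (0.36, adjusted p = 0.179). Hopx passed with the pool as a block, which pairs libraries of the same animals (0.37, adjusted p = 0.0262). In cells with at most 10 endothelial marker UMIs Vim had the opposite sign and was called lower (-1.21, adjusted p = 0.0238). Others that fell were the secreted Wnt antagonist Sfrp1 (-2.45, SE 0.37), Unc13c, a priming factor of vesicles (-2.30, SE 0.27), and Car8, a carbonic anhydrase-related protein (-1.94, SE 0.27). Transcripts of other cell types fell with them. Of 10 microglial markers 5 were lower, C1qa from 10.8 and 40.1 to 4.77 and 0 CPM, and of 8 oligodendrocyte markers 2 were lower. Also lower were 1 of 4 tested markers of choroid plexus epithelium, 1 of 3 of ependymal cells and 1 of 5 of neurons. The call of C1qa did not hold without ATV-TfR replicate 2 (-1.07, adjusted p = 0.58). Their sums were 120 to 283 CPM in low and 106 to 117 CPM in high libraries for microglia. The part of these transcripts in the genes that fell was not tested.

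Whether these bin changes differed between Gfap-high and other astrocytes was tested as an interaction over 14611 genes. For ATV-TfR high against low, 14 genes changed more upward in Gfap-high cells (0.0958% of those tested) and 74 more downward (0.506%). The downward group held 8 of 20 fibrous genes and no upward one, with a median of -0.72 against -0.02 for all genes. Vim in other astrocytes went from 35.6 and 29.1 CPM in low to 120 and 101 CPM in high libraries, while in Gfap-high cells it was 231 and 124 and then 206 and 212 CPM, a difference of -1.48 (SE 0.18, adjusted p = 3.88e-08). Igfbp5 went from 71.3 and 64.6 to 130 and 114 CPM in other astrocytes and from 444 and 248 to 209 and 187 CPM in Gfap-high cells (-1.57, SE 0.15, adjusted p = 5.22e-11). The classes thus lay nearer to each other in the high bin for both genes. The fixed threshold took 1.24% and 0.927% of astrocytes in the low but 23.4% and 21.2% in the high libraries. Gfap-high cells also had a median of 5353 and 5560 UMIs in low and 7570 and 7516 UMIs in high libraries. The part of depth and of this selection in the differences was not tested. Endothelial transcripts moved in the same libraries, with a mean of 4.40 and 4.72 marker UMIs per cell in low and 25.2 and 23.9 in high libraries of other astrocytes. Among cells with at most 10 of them 76 of 13567 genes were called, 48 downward, and these held 37 of the 88. Of the fibrous genes 6 were downward, with Vim (-1.87, adjusted p = 1.63e-08) and Igfbp5 (-1.66, adjusted p = 3.22e-19) among these by edgeR. Over all cells Tnc (-2.14, SE 0.29), S100a6 (-1.02, SE 0.18), C4b (-0.99, SE 0.22), Id3 (-0.93, SE 0.15) and Cd9 (-0.66, SE 0.13) also differed downward, and of these S100a6 was not called among cells with at most 10 endothelial marker UMIs (-0.82, adjusted p = 0.102). Without ATV-TfR replicate 1 the differences of C4b (-0.61, adjusted p = 0.789), Id3 (-0.46, adjusted p = 0.594) and S100a6 (-0.75, adjusted p = 0.34) were not called, while those of Vim, Igfbp5 and Tnc were. In a fit without the library as a block 11 genes were called in all, and Vim was not among them (-1.49, adjusted p = 0.135). Other astrocytes are those with 0 to 2 Gfap UMIs, and their own Gfap was at 27.2 and 25.9 CPM in low and 91.4 and 88.5 CPM in high libraries, so the class itself held more Gfap in the high bin.

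Hsd11b1 was the clearest gene in the other direction. In other astrocytes it was at 115 and 125 CPM in low, 121 and 124 CPM in medium and 148 and 107 CPM in high libraries, with overlap, against the steps given above in Gfap-high cells, a difference of 1.27 (SE 0.14, adjusted p = 2.38e-09). S100b (0.66, SE 0.12), the protease inhibitor Serpine2 (0.58, SE 0.11) and Aldh1a1, which makes retinoic acid (0.64, SE 0.15), also had an interaction upward in Gfap-high cells. For Aldh1a1 the mean was 150 CPM in low and 148 CPM in high libraries of Gfap-high cells, and in other astrocytes it went from 287 to 192 CPM. None of these 3 calls held without ATV-TfR replicate 2 (S100b 0.64, adjusted p = 0.193; Serpine2 0.47, adjusted p = 0.194; Aldh1a1 0.52, adjusted p = 0.542), whereas that of Hsd11b1 held without either pool. Nnat did not differ between the classes by this test (-0.10, SE 0.12, adjusted p = 0.924) and was at 406 and 401 CPM in low and 1126 and 1016 CPM in high libraries of other astrocytes. For Tfrc (0.59, SE 0.23, adjusted p = 0.405), Slc7a5 (0.49, SE 0.25, adjusted p = 0.629), Fcgrt (0.35, SE 0.21, adjusted p = 0.717) and Slc3a2 (0.10, SE 0.12, adjusted p = 0.926) no difference between classes was called. For ATV-CD98hc medium against low the same test gave 42 genes with the larger change upward in Gfap-high cells (0.287%) and 24 downward (0.164%). Endothelial markers were 5 of these, for example Itm2a (1.15, SE 0.21), and no fibrous gene was called. In cells with at most 10 endothelial marker UMIs 13 genes were called, and without the library as a block edgeR called none, with 1066 at an unadjusted p below 0.05. Vim (0.06) and Igfbp5 (0.02) showed no such difference. The endothelial sum in medium libraries was 4612 to 5656 CPM in Gfap-high and 2557 to 2982 CPM in other astrocytes.

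**Figure D4:**
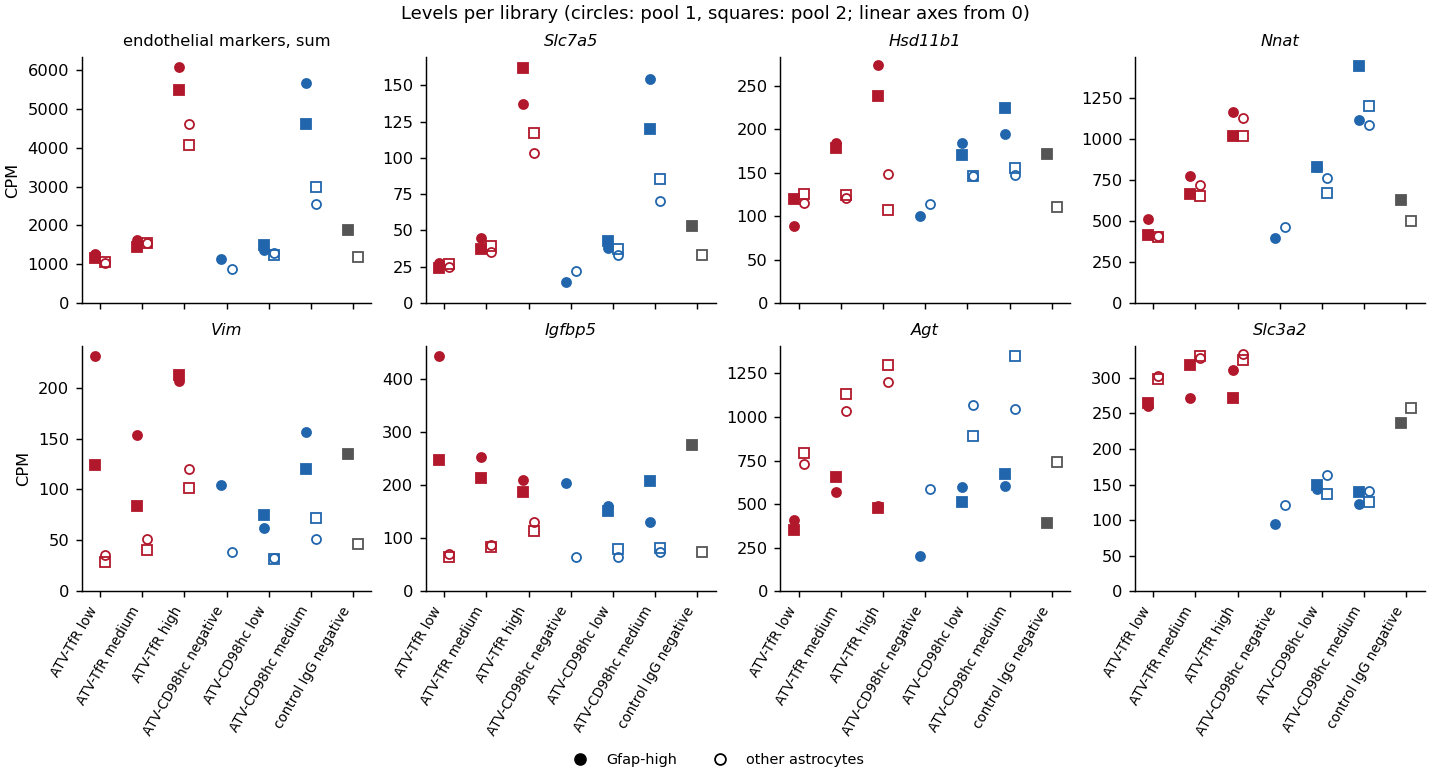
Levels in each library with 20 or more Gfap-high cells (CPM, linear axes from 0): filled marks are Gfap-high and open marks other astrocytes, circles pool 1 and squares pool 2. Hsd11b1 rises over the ATV-TfR bins in Gfap-high cells to 274 and 239 CPM with other astrocytes at 148 and 107 CPM, while Nnat and Slc7a5 are higher in the high bin in both classes and counted Slc3a2 is lower in all ATV-CD98hc libraries, whose knock-in allele may be counted differently.

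The medium bin of ATV-TfR, compared with the same low libraries, had 9 genes higher (0.0779%) and 8 lower (0.0692%), or 94 in all with the pool as a block. DESeq2 called 11 higher and 0 lower, and gave no adjusted p for Crym or Fxyd6. Hsd11b1 (0.85, SE 0.15, adjusted p = 0.0151), Agt (0.74, SE 0.13, adjusted p = 0.0096), Nnat (0.69, SE 0.14, adjusted p = 0.0427) and Scd2 (0.59, SE 0.11, adjusted p = 0.0188) were higher. Crym was at 3.12 and 5.17 CPM, below both low libraries (-3.84, SE 0.43), and Fxyd6 at 14.5 and 22.1 CPM (-2.25, SE 0.35). Both comparisons use the same low libraries, so what they share is not independent. None of these 6 was called without ATV-TfR replicate 1, where Fxyd6 was at -0.73 and Crym at -2.80 (adjusted p = 0.199). Agt was at 408 and 352 CPM in low, 570 and 657 CPM in medium and 489 and 480 CPM in high libraries, with the medium highest. In other astrocytes Agt was at 729 and 796, then 1035 and 1132, then 1201 and 1299 CPM, with the high bin highest. Of 12 endothelial markers 3 were higher, of 10 microglial markers 2 were lower, and none of the 4 receptor genes was called, with Tfrc at 0.58 (adjusted p = 0.477) and Slc7a5 at 0.72 (adjusted p = 0.36).

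In ATV-CD98hc mice the medium bin held 361 genes higher (3.12%) and 102 lower (0.883%) than the low bin. The 463 calls became 177 with DESeq2, 47 in cells with at most 10 endothelial marker UMIs and 6 in cells of 3000 to 6000 UMIs. The settings that restrict the cells hold fewer of them. As with ATV-TfR high, 11 of 12 endothelial markers were higher (median 3.33), and 338 of the 361 genes (93.6%, against 48.7% of all tested) had a higher level in endothelial barcodes of the medium bin. Here too the low-bin level enters both the division and the fold change, so the contrast is partly built in. The endothelial sum was 1366 to 1485 CPM in low and 4612 to 5656 CPM in medium libraries. Tfrc was at 51.2 and 58.3 against 139 and 132 CPM (1.31, SE 0.18, adjusted p = 2.93e-05) and Slc7a5 at 37.7 and 42.6 against 154 and 120 CPM (1.77, SE 0.20, adjusted p = 1.45e-06). Among cells with at most 10 endothelial marker UMIs neither Tfrc (0.83, adjusted p = 0.339) nor Slc7a5 (0.66, adjusted p = 0.708) was called. Fcgrt missed the threshold (0.68, adjusted p = 0.0615) but passed with the pool as a block (0.68, adjusted p = 0.0377), and Slc3a2 was not called (-0.13, adjusted p = 0.801). Among the 23 genes that were not higher in endothelial barcodes were Nnat (0.65, SE 0.14), Scd2 (0.50, SE 0.11), Scd1 (0.95, SE 0.21), Fads1 (0.59, SE 0.14), Fads2 (0.48, SE 0.13) and Prxl2a, a peroxiredoxin-like protein (0.45, SE 0.13). Without ATV-CD98hc replicate 2 none of these 6 was called, with Nnat at 0.46 (adjusted p = 0.241) and Scd2 at 0.48 (adjusted p = 0.11). Hsd11b1 was at 184 and 171 against 195 and 225 CPM and was not called (0.28, adjusted p = 0.466). Of 20 fibrous genes 3 were higher, Vim (1.02), Slc38a1 (1.59) and Id1 (0.95), and 2 lower, Igfbp2 (-0.99) and Cspg5 (-0.40). In cells with at most 10 endothelial marker UMIs none of these 5 was called, Vim was at 0.08 (adjusted p = 0.991) and Id1 had the opposite sign (-0.44), and without ATV-CD98hc replicate 1 none of them was called either. Of 18 lysosomal genes none was called, with a median of -0.13. Of 10 microglial markers 9 were lower, C1qa from 103 and 77.7 CPM to 1.75 and 0 CPM. That is 211 UMIs over the low bin and 1 over the medium bin, lower by 111-fold with an exact 95% counting interval of 19.8 to 4423. The interval takes UMIs as independent, although 70 Gfap-high cells of all libraries (3.34%) held every C1qa UMI. It does not cover the spread between cells or libraries. The sums of these markers were 573 to 636 CPM in low and 116 to 124 CPM in medium libraries, and their part in the genes that fell was not tested.

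The low and negative bins of ATV-CD98hc were compared with 2 libraries against 1, whose spread is taken from the other groups. There 4 genes were higher in the low bin (0.0346%) and 15 lower (0.130%), or 47 in all with the pool as a block. Agt rose from 204 CPM in the negative library to 596 and 512 CPM (1.50, SE 0.23, adjusted p = 0.00382), with Nnat (1.13, SE 0.22) and Serpine2 (0.93, SE 0.19) also higher, and the microglial gene C1qc at least 4.91-fold higher. In other astrocytes of these libraries Agt was at 585 CPM in the negative and 1068 and 891 CPM in the low libraries, the same order as in Gfap-high cells. Of the 15 genes that fell, 3 were among 8 tested pericyte and smooth muscle markers and 1 among 8 oligodendrocyte markers. DESeq2 called 13 genes higher and 0 lower, sharing 3 calls, and gave no adjusted p for Acta2 or Mal. Acta2, which encodes smooth muscle actin, had no UMI in the low libraries and was at least 218-fold lower, and Mal, a myelin protein, was at -3.06 (SE 0.60). With likely doublets left out 3 genes were called, with Mal at -0.82 (adjusted p = 0.895) and Acta2, Nnat and Serpine2 also not called, and among cells without an Agt UMI the fitted value of Acta2 was 0.00. Of the named genes Agt alone was called without ATV-CD98hc replicate 2. The negative library held 33 Gfap-high cells, and its sums were the highest of the 12 for oligodendrocyte markers (2132 CPM) and for pericyte and smooth muscle markers (670 CPM). The part of these transcripts in the result was not tested.

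The antibodies were compared within a bin where both had 2 libraries. In the low bin 14 genes were higher with ATV-TfR (0.121%) and 30 lower (0.260%), or 117 in all with the pool as a block. Slc3a2 was set apart by treatment and genotype, at 260 and 264 CPM in ATV-TfR and 144 and 149 CPM in ATV-CD98hc mice (0.80, SE 0.14, adjusted p = 0.00701), with control IgG negative at 236 CPM. In the medium bin it was at 272 and 317 against 123 and 139 CPM (1.15, SE 0.15, adjusted p = 7.21e-06). These are counts against genes of different genotype, as stated above, and other astrocytes had the same order in the low bin, at 302 and 298 against 163 and 137 CPM. Of 20 fibrous genes 5 were higher with ATV-TfR in the low bin and none lower, with a median of 0.27. These were Fxyd6 (3.48, SE 0.47), Crym (3.10, SE 0.46), Slc38a1 (1.38, SE 0.30), Vim (1.33, SE 0.26) and Igfbp5 (1.11, SE 0.20). Hsd11b1 (-0.80, SE 0.16), Nnat (-0.88, SE 0.14) and Agt (-0.58, SE 0.13) were lower with ATV-TfR, as were 7 of 10 microglial markers, whose sum was 120 to 283 CPM against 573 to 636 CPM. Of 12 endothelial markers 2 were also lower and none higher (median -0.89), with a sum of 1155 to 1267 CPM against 1366 to 1485 CPM. Among cells with at most 10 endothelial marker UMIs 45 of 10392 genes were called, and 30 of these were among the 44 called over all cells. Beyond that fit the part of microglial and endothelial transcripts in the other differences was not tested. Without ATV-TfR replicate 1 Vim (0.83, adjusted p = 0.248), Igfbp5 (0.64, adjusted p = 0.486), Crym (2.42, adjusted p = 0.14), Slc38a1 (0.94, adjusted p = 0.402) and Hsd11b1 (-0.59, adjusted p = 0.563) were not called, while Fxyd6 and Nnat were. Without ATV-TfR replicate 2 Nnat was not called (-0.74, adjusted p = 0.112), and without ATV-CD98hc replicate 2 it alone of these 9 genes was, the others having adjusted p of 0.0502 to 0.358. Slc3a2 kept 0.77 to 0.83 whichever pool was left out but was then not called (adjusted p = 0.0511 to 0.112).

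In the medium bin 181 genes were higher with ATV-TfR (1.57%) and 467 lower (4.04%). The lower genes included 11 of 12 endothelial markers and 5 of 9 interferon-stimulated genes, with the endothelial sum at 1439 to 1620 CPM in ATV-TfR and 4612 to 5656 CPM in ATV-CD98hc mice. Tfrc (-1.57, SE 0.17) and Slc7a5 (-1.73, SE 0.18) were lower as well, and in cells with at most 10 endothelial marker UMIs neither was called (-1.09, adjusted p = 0.0854, and -0.32, adjusted p = 0.801). For Tfrc, a knock-in gene of the ATV-TfR mice, a lower level and fewer counted reads cannot be told apart, as stated above. Higher with ATV-TfR were Chrdl1, an inhibitor of bone morphogenetic proteins (1.62, SE 0.32), Nrg1, neuregulin (1.45, SE 0.26), the netrin receptor Dcc (1.59, SE 0.24), and 5 of 20 fibrous genes, among them Thbs4 (1.53, SE 0.46, adjusted p = 0.0478), while Id1 (-0.73, adjusted p = 0.0474) and Slc38a1 (-0.92, adjusted p = 0.0395) of that list were lower. Neither was called without ATV-TfR replicate 2 or without ATV-CD98hc replicate 1, and in cells with at most 10 endothelial marker UMIs Id1 had the opposite sign (0.68, adjusted p = 0.576). In those cells Chrdl1 (2.11, adjusted p = 0.0958), Dcc (1.31, adjusted p = 0.107) and Thbs4 (1.31, adjusted p = 0.243) were not called, and without ATV-CD98hc replicate 2 Nrg1 was not (1.06, adjusted p = 0.056). The fixed AF647 gates cut the antibodies at different points of their own distributions, per the labels, so equal bins do not mean equal rank of signal. The difference between the antibodies in the change from low to medium was tested directly, and 1 gene changed more upward with ATV-TfR (0.00866%) and 38 more downward (0.329%), of which 4 were endothelial markers, or 115 in all with the pool as a block. In cells with at most 10 endothelial marker UMIs edgeR called none of 10392 genes, with 498 at an unadjusted p below 0.05. Vim missed the threshold in that test (-1.53, SE 0.36, adjusted p = 0.0647) and passed with the block (-1.54, adjusted p = 0.00201), and Hsd11b1 (0.57, adjusted p = 0.41), Nnat (0.03, adjusted p = 0.982) and Slc3a2 (0.35, adjusted p = 0.708) were not called.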

How the data were processed

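The authors deposited whole-number UMI counts, unnormalized, with lists of barcodes, genes and libraries (unit: other). Cell Ranger 7.1.0, Seurat 4 and 5 and the build GRCm38 (mm10) are named per the submitters' processing notes, without their roles. The members and gene lists were chosen with earlier results of these data known. From the deposited counts, UMIs were summed per library and class, given as CPM, and tested with edgeR 4.0.16 (limma 3.58.1, R 4.3.3; TMM factors, filterByExpr, quasi-likelihood test), with DESeq2 1.42.0 as an alternative. A gene was called at an adjusted p below 0.05. A library needed 20 cells of a class. The ATV-TfR negative and ATV-CD98hc high bins fell short, so the planned comparisons with them were not run, and the comparisons of medium with low, of high with low and within the medium bin, the interactions and the limit of 10 endothelial UMIs were added after the data were seen. Doublets were scored with Scrublet in scanpy 1.11.5 and left out only in an alternative. Endothelial and microglial barcodes had a UMI of both Cldn5 and Flt1, or of both Cx3cr1 and P2ry12, with a sum at least 3 times that of the other classes' genes. Sex was called per cell from sex-linked genes. Genes named beside the lists were the 10 with the largest change in each direction among those called, at 50 CPM or more in the higher group and with 1 direction in every library pair. Outside that rule and the lists, S100b, Fads1, Fads2, Scd1, Prxl2a, Hsd11b1 and Nnat were named in some comparisons after their values were seen. On simulated counts of 11554 genes for ATV-TfR high minus low, 59% of genes changed by 1 on the log2 scale and 84% of those changed by 2 were recovered, with 3.4% false calls, and for the class comparison (13475 genes) 86%, 98% and 5.2%. Simulated libraries were independent, with no pool effect, no difference in endothelial transcripts and a spread set by expression level alone. These shares therefore hold for such counts and not directly for the libraries here. Within a treatment, libraries of the same number come from the same animals per the labels, and the deviations of same-numbered libraries from their bin means correlated at 0.31 (ATV-TfR low and medium), 0.14 (low and high), 0.25 (medium and high) and 0.00 (ATV-CD98hc low and medium). Some genes of the lists are counted but not reported by name here.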

Additional observations from a re-analysis of the deposited data

Results flagged for a closer look

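In 3 tests the difference between groups was itself tested and passed for some genes. The change from the low to the medium bin differed between the antibodies for 39 genes, and 38 of these changed more downward with ATV-TfR. The change from low to high ATV-TfR differed between Gfap-high and other astrocytes for 88 genes, with Vim, Igfbp5 and Tnc among the 74 that changed more downward in Gfap-high cells and Hsd11b1 among the 14 that changed more upward. The change from low to medium ATV-CD98hc differed between the classes for 66 genes, of which 5 were endothelial markers.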

How the results depend on the processing

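Counts of called genes moved with the cells, the tool and the pools. Of the counts and slopes under alternatives, 125 stayed on their side of the threshold or within 1.5 times, 70 counts moved further and 4 slopes crossed the threshold. Of the values of named genes under alternatives, 2183 kept direction and call, 310 lost the call, 17 gained one and 47 uncalled ones changed sign. Those that turned a called direction were Id1 between the medium and low bins of ATV-CD98hc (-0.43 in cells without an Agt UMI, -1.33 in cells of 3000 to 6000 UMIs, -0.44 with at most 10 endothelial UMIs), Id1 between the high and low bins of ATV-TfR (-0.45 in the last setting), Id1 in the medium bin (0.60, 1.90 and 0.68 in the 3 settings), Slc38a1 there (0.44 with 5 or more Gfap UMIs) and Ifitm3 between ATV-TfR high and low (-0.61 and -0.51 in the last 2 settings). Acta2 between low and negative ATV-CD98hc had a fitted value of 0.00 in cells without an Agt UMI, which gives no direction. For the settings that restrict the cells, fewer cells and fewer genes tested are part of their construction, and for the others the cause was not tested.

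The Gfap-high share kept a slope of 1.09 to 1.22 with an ATV-TfR pool left out, where 24 arrangements allow no exact p below 0.083. The ATV-CD98hc slope passed with 2 Gfap UMIs (0.55) or with few endothelial UMIs (0.62). It did not pass at 2000 UMIs per cell (0.42), with 5 Gfap UMIs (0.59), in male (0.49) or female cells (0.73), with doublets left out (0.65), with barcodes found in 1 library only (0.63) or with the replicate block (0.64). The 5167 calls between the classes became 690 in the negative bin alone, 2932 in cells of 3000 to 6000 UMIs and 2718 in the low bins. DESeq2 called 340 genes (ATV-TfR high against low), 11 (medium against low, 0 lower), 13 (ATV-CD98hc low against negative, 0 lower), 177 (ATV-CD98hc medium against low), 9 (low bin), 247 (medium bin), 13 (difference between antibodies), and 43 and 16 (class by bin, ATV-TfR and ATV-CD98hc). Without a filter on low counts the calls were 121 (ATV-TfR medium against low), 116 (ATV-CD98hc low against negative), 165 (low bin) and 161 (difference). With 5 or more Gfap UMIs they were 394 and 6 (ATV-TfR high and medium against low), 159 (ATV-CD98hc medium), 11 and 226 (low and medium bin) and 4 (difference). With doublets left out they were 7 (ATV-TfR medium), 3 (ATV-CD98hc low against negative) and 17 (low bin). In cells without an Agt UMI they were 279 and 5 (ATV-TfR high and medium), 17 (ATV-CD98hc medium), 15 and 59 (low and medium bin) and 0 (difference, edgeR, 552 at an unadjusted p below 0.05). In cells of 3000 to 6000 UMIs they were 110, 11, 6, 20, 21 and, for the difference, 0 (391 unadjusted) in the same order. With at most 10 endothelial marker UMIs they were 231 (ATV-TfR high), 47 and 84 (ATV-CD98hc medium against low and low against negative), 33 (medium bin), 0 (difference, 498 unadjusted) and 13 (class by bin, ATV-CD98hc).

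Pairing by pool within a treatment (the replicate block, centred so that antibodies are compared over both pools) gave 94 calls for ATV-TfR medium, 47 for ATV-CD98hc low against negative, 117 in the low bin and 115 for the difference, and no share call changed. Without the block the class by bin tests called 11 (ATV-TfR) and 0 (ATV-CD98hc, 1066 unadjusted).

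With each pool left out in turn, the calls were 299 to 1109 for ATV-TfR high (299 without ATV-TfR replicate 2, 311 without replicate 1), 6 to 29 for ATV-TfR medium (6 without ATV-TfR replicate 1, 7 without replicate 2, 29 with ATV-CD98hc replicate 2 left out), 149 to 462 for ATV-CD98hc medium (149 and 292 without ATV-CD98hc replicates 1 and 2) and 5 to 31 for ATV-CD98hc low against negative (5 if ATV-CD98hc replicate 2 is left out, 31 if ATV-TfR replicate 2 is). They were 11 to 44 in the low bin (11 if ATV-TfR replicate 1 is left out, 13 and 14 for the ATV-CD98hc pools), 263 to 658 in the medium bin (263 if ATV-CD98hc replicate 1 is left out, 341 and 369 for the ATV-TfR pools) and 4 to 52 for the difference (4 if ATV-TfR replicate 1 is left out, 7 if ATV-CD98hc replicate 1 is). Class by bin calls were 45 to 91 for ATV-TfR (45 without ATV-TfR replicate 1) and 6 to 124 for ATV-CD98hc (6 and 28 for its own pools 1 and 2, 117 and 124 for those of ATV-TfR). A bin left with 1 library is assumed to vary like the others.

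Planned comparisons with the ATV-TfR negative and ATV-CD98hc high bins, thinning for the share of all cells, and leaving out control IgG replicate 1 were not run, the first because these bins held too few cells. Settings that left a bin below 20 cells gave no value.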
